A study of Mus musculus with 12 samples.

Results

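The livers of WT mice conceived by in vitro fertilization (IVF) were compared with the livers of WT mice conceived by natural mating. Each group had 3 mice with 1 array each, so that the comparison used 6 of the 12 Affymetrix Mouse Gene 1.0 ST arrays of the series. The arrays were chosen by genotype and mode of conception, and all 34760 probe sets of the deposited table were tested. The other 6 arrays came from mice without the transcription factor ATF7 (Atf7-/-), 3 conceived by IVF and 3 by natural mating. They entered the estimate of the spread, and their own IVF difference was set beside that of WT mice. The study asked which expression changes IVF leaves in the liver at weaning age and whether ATF7, which can silence genes through histone H3K9 methylation, takes part in them.

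All mice were males of the C57BL6/JJmsSlc background. The labels give their age as 4 weeks, and the methods put it a week lower. For the IVF mice, eggs of superovulated WT females were fertilized in HTF medium with sperm of WT males, and the embryos were carried and born by recipient mothers of another strain, ICR. The naturally mated mice were carried by their own WT mothers. Hormone treatment, fertilization and culture outside the body, embryo transfer and the strain of the mother that carried the pups therefore changed together and cannot be told apart. Livers of a group came from different recipients or mothers, and the whole organ was used, so that fewer cells of a type and less RNA per cell cannot be told apart. The sources used here do not give the hour at which the livers were taken, and whether it differed between the groups cannot be told from these data.

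The liver carries out the synthesis of cholesterol, bile acids, heme, glycogen and plasma proteins, and hepatocytes divide this work between a periportal zone, where blood enters a lobule, and a pericentral zone, where it leaves. Much of it is timed by a clock in which CLOCK and BMAL1 (the product of Arntl) switch on the Per, Cry and Nr1d genes, whose products in turn hold CLOCK and BMAL1 or the Arntl gene down. At weaning the mouse liver is still growing, and part of its hepatocytes still divide.

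Each log2 expression value is the deposited RMA value of a probe set, and each log2 fold change is the mean of WT IVF minus the mean of WT natural mating with its standard error (SE) from limma. A gene counted as called where the p adjusted by Benjamini-Hochberg was no higher than 0.05 and the log2 fold change was 0.6 or more in size, and its call is said to hold where it was also made in each of the 6 fits that left out 1 WT array. With 1 probe set for each of 19937 gene symbols, 652 genes were called higher in WT IVF (3.27% of those tested) and 190 lower (0.953%). Calls held for 293 of the higher genes (1.47%) and 84 of the lower ones (0.421%). A log2 fold change of at least 1 in size was reached by 125 of the called genes that rose and 62 of those that fell, and one of at least 2 by 9 of each. The median log2 fold change over all genes was -0.02, and 46% of them were positive.

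Of all probe sets, 989 were higher (2.85%) and 582 lower (1.67%), so that 63% of the called ones were higher. Centring each array on its median gave 1334 and 432, of which 75.5% were higher. Before centring, the groups did not overlap for 986 of the 989 called higher and 578 of the 582 called lower. Lack of overlap therefore adds little to a call. Array medians were 6.22 to 6.27 in WT IVF and 6.3 to 6.34 in WT natural mating, and Pearson's r across probe sets was 0.975 to 0.979 between a WT IVF and a WT natural mating array, against 0.98 to 0.988 within groups. The livers read as liver. Alb, the gene of serum albumin, had 13.86, 13.86 and 13.93 in WT IVF and 13.95, 13.87 and 13.84 in WT natural mating, and none of 9 pancreas, 9 intestine, 10 skeletal muscle, 8 adipocyte and 8 kidney and adrenal markers was called. WT natural mating replicate 3 stood apart from the other WT arrays. Fasn, the gene of fatty acid synthase, read 11, 11.47 and 11.19 in WT IVF and 10.33, 10.5 and 12.38 in WT natural mating, and Hsd3b5, a male-biased steroid enzyme gene, read 8.5, 8.52 and 8.26 in WT IVF and 4.76, 4.91 and 9.72 in WT natural mating. Neither gene was called. With WT natural mating replicate 3 left out, Hsd3b5 was called (log2 fold change 3.59, adjusted p = 0.00258), and Fasn was not, its log2 fold change lying between -0.22 and 0.8 with 1 WT array left out.

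**Figure D1:**
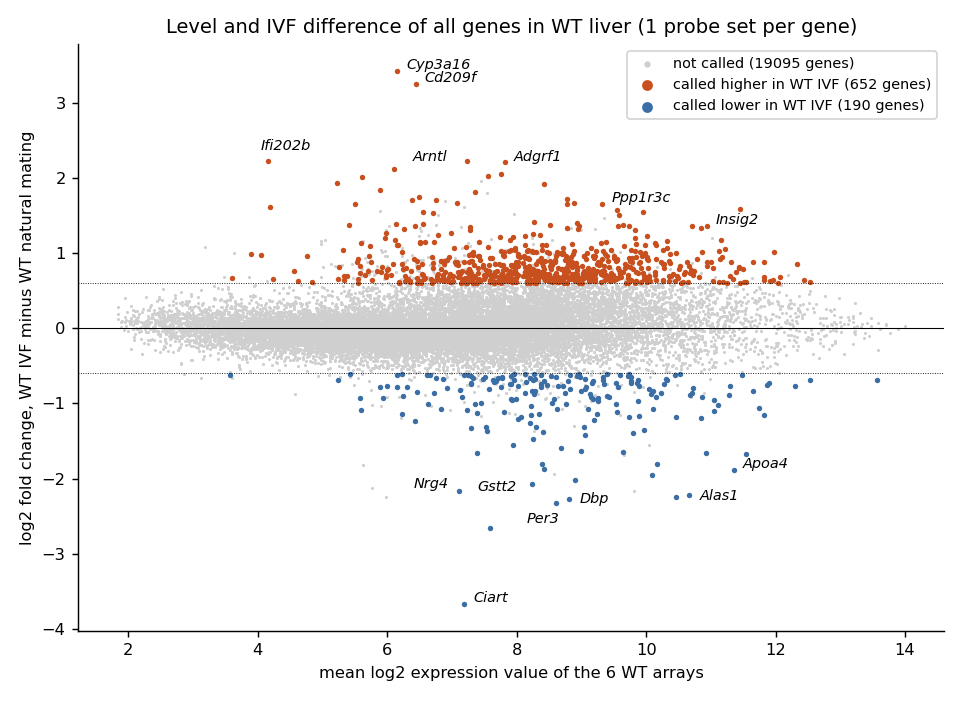
Log2 fold change of WT IVF over WT natural mating (vertical axis) against the mean log2 expression value of the 6 WT arrays (horizontal axis) for 19937 genes, 1 probe set each, with dotted lines at the fold threshold of 0.6. The 652 genes called higher outnumber the 190 called lower, and Ciart at -3.67 and Cyp3a16 at 3.43 mark the ends.

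The clock genes split into a rising and a falling side, and the falling side was the larger. Of 18 measured repressors and outputs of the clock, 11 fell and 1 rose, with a median log2 fold change of -0.82 against -0.02 over all genes, and 8 of the falls held. Of 7 measured activators and genes of the opposite phase, 3 rose and 1 fell, with a median of 0.58. The list medians by array were 0.62, 0.72 and 0.62 in WT IVF and -0.05, -0.05 and 0.04 in WT natural mating for the activators, relative to the WT natural mating mean. For the repressors and outputs they were -0.89, -0.60 and -0.93 in WT IVF and 0.01, 0.00 and -0.08 in WT natural mating. On both lists all 3 WT IVF arrays lay outside the range of the WT natural mating arrays.

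The start regions of 4 of these genes are shown because they differ in the binding sequences of the clock that they hold. They are RefSeq promoters of assembly GRCm38.p6, from 250 bases before to 50 bases after the start of the gene, and 9 of the 11 clock genes looked up were in the table. The letters searched on both strands were the E-box CACGTG, bound by CLOCK and BMAL1, the D-box TTATGTAA, bound by DBP and TEF, and AGGTCA, the core sequence bound by ROR and REV-ERB proteins, and matches are in capitals (TGACCT is AGGTCA read on the other strand). Ciart held 3 E-boxes, Per3 held 2 D-boxes, Per1 held 1 E-box and 1 AGGTCA, and Arntl held no exact match in this window. Of the genes looked up but not shown, Lonrf3, which rose, held 1 E-box, and Dbp, Usp2, Nr1d1 and Clock held no exact match. Only exact matches are counted, so that variants of a binding sequence would be missed.
Ciart (chr3:95882179-95882478, minus strand): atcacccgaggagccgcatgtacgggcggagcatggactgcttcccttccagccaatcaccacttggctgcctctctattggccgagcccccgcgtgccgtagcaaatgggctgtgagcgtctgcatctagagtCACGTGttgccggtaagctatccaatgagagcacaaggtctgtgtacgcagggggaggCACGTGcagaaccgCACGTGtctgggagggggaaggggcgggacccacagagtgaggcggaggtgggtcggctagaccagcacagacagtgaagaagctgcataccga
Per3 (chr4:151044616-151044915, minus strand): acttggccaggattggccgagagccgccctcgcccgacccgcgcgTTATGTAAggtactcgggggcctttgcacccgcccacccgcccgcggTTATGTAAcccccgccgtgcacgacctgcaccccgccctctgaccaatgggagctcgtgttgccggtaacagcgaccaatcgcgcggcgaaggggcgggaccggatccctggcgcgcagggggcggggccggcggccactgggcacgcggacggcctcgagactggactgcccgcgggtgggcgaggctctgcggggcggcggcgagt
Per1 (chr11:69098699-69098998, plus strand): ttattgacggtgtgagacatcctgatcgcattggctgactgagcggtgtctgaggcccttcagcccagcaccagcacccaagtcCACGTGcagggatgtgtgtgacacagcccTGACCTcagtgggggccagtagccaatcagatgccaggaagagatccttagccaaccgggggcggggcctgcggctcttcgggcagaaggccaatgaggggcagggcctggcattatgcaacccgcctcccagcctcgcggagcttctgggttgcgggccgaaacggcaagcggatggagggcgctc
Arntl (chr7:113207215-113207514, plus strand): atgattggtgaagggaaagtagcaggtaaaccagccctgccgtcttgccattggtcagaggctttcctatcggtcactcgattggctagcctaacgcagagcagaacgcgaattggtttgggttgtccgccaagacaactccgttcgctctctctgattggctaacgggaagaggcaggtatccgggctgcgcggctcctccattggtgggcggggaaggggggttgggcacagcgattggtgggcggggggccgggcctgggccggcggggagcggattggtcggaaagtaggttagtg
An E-box was present in 7.15% of all 32851 promoters of the table, in 8.38% of those of the measured genes, in 16.3% of the 123 promoters of genes that fell and in 9.25% of the 519 promoters of genes that rose. The D-box was present in 0.938% of all promoters, in 0.852% for measured genes, in 3.25% for genes that fell (4 promoters) and in 1.16% for those that rose. AGGTCA was present in 16.3% of all promoters, and in 13.9%, 16.3% and 12.3% of these sets. The cAMP response element TGACGTCA, which the ATF2 subfamily binds, was searched too. It was present in 2.49% for measured genes, in 3.25% for genes that fell (4 promoters) and in 2.89% for those that rose. These shares are descriptions of letters in a short window and were not tested.

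Ciart, whose product represses CLOCK and BMAL1, had the largest fall. It read 5.45, 4.93 and 5.67 in WT IVF and 8.99, 9.19 and 8.89 in WT natural mating (log2 fold change -3.67, SE 0.377, adjusted p = 0.000805), which is a level 12.7-fold lower. Its second probe set fell by 2.72 (adjusted p = 0.000551). Per3, a member of the period family, read 7.35, 7.56 and 7.41 in WT IVF and 9.91, 9.84 and 9.53 in WT natural mating (log2 fold change -2.32, SE 0.223, adjusted p = 0.000551). Per2, a core repressor, read 7.5, 7.62 and 7.41 in WT IVF and 8.78, 8.84 and 9.33 in WT natural mating (log2 fold change -1.48, SE 0.144, adjusted p = 0.000605). The third period gene, Per1, had the smallest fall of the family, with 7.4, 7.63 and 7.41 in WT IVF and 8.36, 8.9 and 8.72 in WT natural mating (log2 fold change -1.18, SE 0.139, adjusted p = 0.0015). For all 3 period genes every WT IVF array lay below every WT natural mating array, by a gap larger than the spread within either group.

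The outputs of the clock fell with the repressors. Dbp, a transcription factor that drives daily rhythms of liver enzymes, read 7.47, 7.87 and 7.65 in WT IVF and 10.09, 10.05 and 9.69 in WT natural mating (log2 fold change -2.28, SE 0.33, adjusted p = 0.00349). Its relative Tef had 8.26, 8.46 and 8.43 in WT IVF and 9.87, 9.69 and 9.53 in WT natural mating (log2 fold change -1.31, SE 0.217, adjusted p = 0.00612). Usp2, a rhythmic ubiquitin protease, read 7.53, 7.4 and 7.53 in WT IVF and 9.06, 9.43 and 9.38 in WT natural mating (log2 fold change -1.81, SE 0.18, adjusted p = 0.000625). The genes of the 2 REV-ERB receptors, which repress Arntl, behaved less evenly. Nr1d2 fell by 0.78 (SE 0.151, adjusted p = 0.0123) and its call held. Nr1d1 read 8.91, 9.47 and 8.71 in WT IVF and 10.58, 9.9 and 9.63 in WT natural mating, and its call (log2 fold change -1.0, SE 0.28, adjusted p = 0.0498) was lost when WT IVF replicate 1 or 3 or WT natural mating replicate 1 or 2 was left out (adjusted p up to 0.154). Lonrf3 was the 1 gene of this list that rose, with 8.04, 7.59 and 8.18 in WT IVF and 6.65, 6.36 and 6.86 in WT natural mating (log2 fold change 1.32, SE 0.212, adjusted p = 0.00565).

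On the activating side, Arntl read 8.42, 8.14 and 8.45 in WT IVF and 6.01, 5.94 and 6.38 in WT natural mating (log2 fold change 2.23, SE 0.178, adjusted p = 0.000535). Its partner Clock read 9.35, 9.18 and 9.38 in WT IVF and 8.37, 8.5 and 8.4 in WT natural mating (log2 fold change 0.88, SE 0.107, adjusted p = 0.00174). The groups of both genes were far apart. Nfil3, a repressor of D-box genes that shares the phase of Arntl, overlapped between the groups, with 8.1, 8.6 and 8.09 in WT IVF and 7.62, 7.48 and 8.55 in WT natural mating (log2 fold change 0.38, SE 0.265, adjusted p = 0.414). The gene on this list that fell was Gys2, the liver glycogen synthase, which is described with the glycogen genes.

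**Figure D2:**
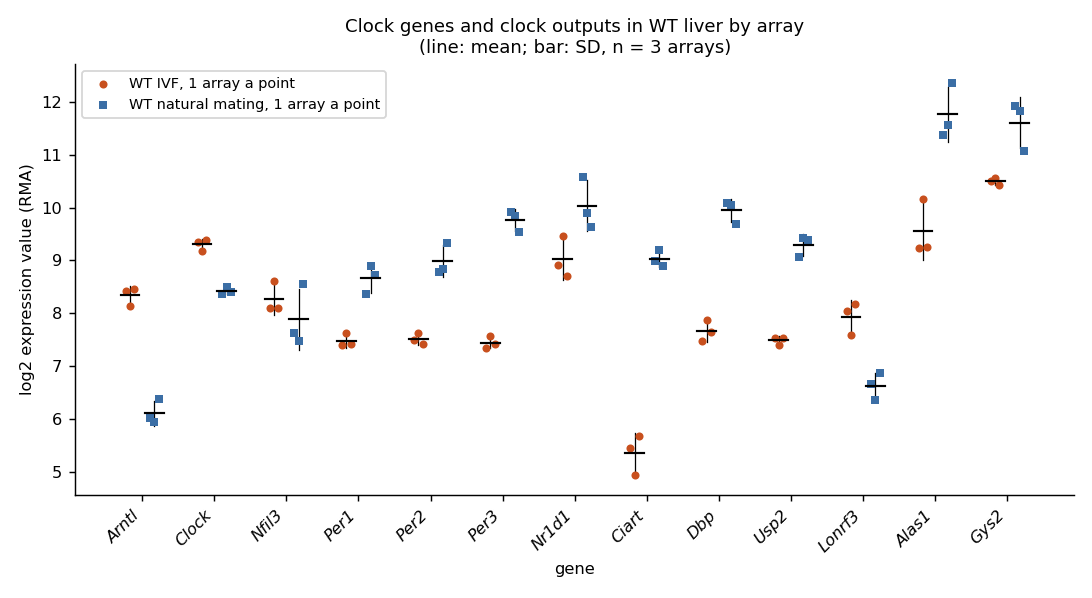
Log2 expression values (vertical axis) of clock genes, clock outputs, Alas1 and Gys2 (horizontal axis) on each of 3 WT IVF arrays (circles, left) and 3 WT natural mating arrays (squares, right), with the mean as a line and the SD as a bar. Arntl, Clock and Lonrf3 lie higher in WT IVF and the Per genes, Ciart, Dbp and Usp2 lie lower without overlap, while the groups of Nfil3 overlap.

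Heme, iron and glutathione genes fell in part. Alas1, which catalyses the first and slowest step of heme synthesis, read 9.23, 10.16 and 9.25 in WT IVF and 11.38, 11.56 and 12.35 in WT natural mating (log2 fold change -2.21, SE 0.3, adjusted p = 0.00261), and Hmox1, which breaks heme down, read 8.24, 8.32 and 8.2 in WT IVF and 8.87, 8.98 and 9.22 in WT natural mating (log2 fold change -0.77, SE 0.139, adjusted p = 0.00935). These 2 were the only called genes of 12 measured in heme synthesis and breakdown, whose median was 0.15. Of 19 iron genes 1 was called, the ferritin light chain gene Ftl1, with 8.64, 8.48 and 8.9 in WT IVF and 10.06, 9.68 and 9.71 in WT natural mating (log2 fold change -1.14, SE 0.167, adjusted p = 0.00366). Hamp, the gene of the iron hormone hepcidin, varied within both groups far more than between them. It read 10.85, 4.94 and 10.42 in WT IVF and 12.85, 12.43 and 7.42 in WT natural mating (log2 fold change -2.16, SE 1.58, adjusted p = 0.437).

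Of 30 glutathione S-transferase and NRF2 target genes, 4 fell and 2 rose, with a median of 0.08, and all 4 falls held. Gstt2, a theta-class transferase, read 7.02, 7.43 and 7.13 in WT IVF and 9.81, 9.29 and 8.71 in WT natural mating (log2 fold change -2.08, SE 0.262, adjusted p = 0.00192). Gstp1, the main pi-class enzyme of male mouse liver, read 11.24, 11.24 and 11.27 in WT IVF and 12.11, 12.46 and 12.63 in WT natural mating (log2 fold change -1.15, SE 0.222, adjusted p = 0.0126). The 5-oxoprolinase gene Oplah and the microsomal transferase gene Mgst3 fell as well, Oplah by 0.87 (SE 0.128, adjusted p = 0.00361), Mgst3 by 0.74 (SE 0.134, adjusted p = 0.00981). Ggct, whose product makes the substrate of 5-oxoprolinase, went the other way with 7.61, 7.41 and 7.85 in WT IVF and 6.7, 6.89 and 6.63 in WT natural mating (log2 fold change 0.88, SE 0.125, adjusted p = 0.00306). Nfe2l2, the gene of NRF2 itself, and its classical target Nqo1 were not called (log2 fold change -0.32, adjusted p = 0.108, and 0.37, adjusted p = 0.453).

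The genes of sterol synthesis lay higher in WT IVF, but their few calls did not hold when single WT arrays were left out. All 11 measured genes from squalene to cholesterol had a positive log2 fold change, with a median of 0.67, and 8 of 9 genes of the mevalonate pathway, with a median of 0.35. On each list 2 genes were called, and none of these calls held. By array, the squalene to cholesterol medians were 0.70, 0.62 and 0.68 in WT IVF and -0.25, -0.15 and 0.38 in WT natural mating, so that WT natural mating replicate 3 lay closest to the WT IVF arrays. Without it the list had 2 calls and a median of 0.65. Sqle, squalene epoxidase and a rate-limiting enzyme, read 9.71, 9.13 and 9.68 in WT IVF and 7.38, 7.68 and 9.44 in WT natural mating (log2 fold change 1.34, SE 0.654, adjusted p = 0.233).

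Insig2, which retains the sterol sensor SCAP and with it SREBP in the endoplasmic reticulum, was the 1 called gene of 16 sterol regulators and uptake genes. It read 11.59, 11.54 and 11.74 in WT IVF and 10.56, 10.43 and 9.77 in WT natural mating (log2 fold change 1.37, SE 0.195, adjusted p = 0.00327), while Srebf2, the gene of the main sterol activator, had 8.81, 8.69 and 8.76 in WT IVF and 8.36, 8.43 and 8.48 in WT natural mating (log2 fold change 0.33, SE 0.0889, adjusted p = 0.0416), below the fold threshold. Of 18 bile acid synthesis genes 1 rose and 1 fell. Hsd3b7, an early enzyme of the pathway, read 10.73, 10.53 and 10.86 in WT IVF and 9.43, 9.38 and 9.97 in WT natural mating (log2 fold change 1.12, SE 0.16, adjusted p = 0.00333). The rate-limiting Cyp7a1 was spread within WT IVF, with 8.6, 10.63 and 8.79 in WT IVF and 11.28, 11.76 and 11.72 in WT natural mating. Its fall (log2 fold change -2.25, SE 0.571, adjusted p = 0.0357) lost its call without any array but WT IVF replicate 2, with adjusted p up to 0.118. Among 12 bile acid transport genes, the lipid flippase gene Atp8b1 rose by 0.82 (SE 0.105, adjusted p = 0.00203), and the bile salt export pump gene Abcb11 had 0.47 (SE 0.0912, adjusted p = 0.0127), below the fold threshold.

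Genes of the pericentral zone lay higher and genes of the periportal zone lower in WT IVF. Of 16 pericentral genes 4 rose and 1 fell, with a median of 0.50, and of 16 periportal genes 3 fell and none rose, with a median of -0.26. The pericentral list also showed the array that stood apart, with medians of 0.29, 0.63 and 0.49 in WT IVF and -0.07, -0.27 and 0.34 in WT natural mating, and without WT natural mating replicate 3 it had 8 rises and no fall. The periportal medians were -0.20, -0.33 and -0.12 in WT IVF and -0.03, 0.07 and -0.04 in WT natural mating, without overlap.

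Avpr1a, the vasopressin receptor of pericentral hepatocytes, read 9.62, 9.59 and 9.58 in WT IVF and 8.04, 7.78 and 8.01 in WT natural mating (log2 fold change 1.65, SE 0.165, adjusted p = 0.000625). Rhbg, an ammonium transporter of the same cells, read 8.28, 8.28 and 8.49 in WT IVF and 6.83, 6.84 and 7.73 in WT natural mating (log2 fold change 1.22, SE 0.212, adjusted p = 0.00804). The 3 WT IVF arrays of each gene agreed closely and lay above all WT natural mating arrays. The glutamine synthetase gene Glul, the usual marker of the cells around the central vein, overlapped, with 11.31, 11.31 and 11.39 in WT IVF and 10.68, 9.7 and 11.71 in WT natural mating (log2 fold change 0.64, SE 0.394, adjusted p = 0.351), and passed only without WT natural mating replicate 3 (1.14, adjusted p = 0.0409). These are the values of its brighter probe set, and the other Glul probe set was not called either (log2 fold change 0.40, SE 0.281, adjusted p = 0.419). Rspo3, a Wnt amplifier released by central vein endothelium, read 7.62, 7.92 and 7.76 in WT IVF and 7.03, 6.98 and 7.1 in WT natural mating (log2 fold change 0.73, SE 0.12, adjusted p = 0.00582), and the Wnt target Axin2 was not called (log2 fold change 0.22, SE 0.134, adjusted p = 0.332). On the periportal side, Apoa4, an apolipoprotein, read 10.31, 10.37 and 10.53 in WT IVF and 12.49, 12.95 and 11.44 in WT natural mating (log2 fold change -1.89, SE 0.295, adjusted p = 0.00471). Etnppl, which breaks down phosphoethanolamine, read 9.02, 9.76 and 9.1 in WT IVF and 10.62, 10.95 and 10.37 in WT natural mating (log2 fold change -1.35, SE 0.204, adjusted p = 0.00409). The urea cycle gene Cps1 differed by only 0.05 (SE 0.106, adjusted p = 0.8).

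Glycogen genes changed in opposite directions. Ppp1r3c, a subunit that targets protein phosphatase to glycogen and favours its storage, read 10, 10.13 and 10.31 in WT IVF and 8.84, 8.05 and 8.58 in WT natural mating (log2 fold change 1.66, SE 0.323, adjusted p = 0.0127). The related subunit gene Ppp1r3g, which is known to rise in the fasted liver, read 6.93, 6.75 and 6.91 in WT IVF and 8.74, 8.18 and 7.75 in WT natural mating (log2 fold change -1.36, SE 0.221, adjusted p = 0.00575). Gys2 read 10.51, 10.56 and 10.42 in WT IVF and 11.93, 11.83 and 11.06 in WT natural mating (log2 fold change -1.11, SE 0.187, adjusted p = 0.00681). The alanine transaminase gene Gpt2, which feeds gluconeogenesis, fell by 1.18 (SE 0.19, adjusted p = 0.00567). Pck1, the gluconeogenic enzyme gene, read 11.77, 11.91 and 12.06 in WT IVF and 12.8, 12.81 and 12.44 in WT natural mating, and its call (log2 fold change -0.77, SE 0.177, adjusted p = 0.0247) ended without WT IVF replicates 1 or 2 or WT natural mating replicates 1 or 2 (adjusted p up to 0.0821). Of 21 gluconeogenesis and glycogen genes, 1 rose and 5 fell, and 2 of the falls held.

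Genes that a fasting liver raises were on the low side without many calls. Of 28 PPAR alpha and fasting response genes, 22 had a negative log2 fold change and 3 fell, with a median of -0.20. Acaa1b, a peroxisomal thiolase, read 10.41, 10.05 and 10.3 in WT IVF and 11.83, 11.61 and 10.89 in WT natural mating (log2 fold change -1.19, SE 0.224, adjusted p = 0.0111), and its call was the one that held. Fgf21, the fasting hormone gene, read 6.93, 6.44 and 6.72 in WT IVF and 8.59, 8.18 and 6.26 in WT natural mating (log2 fold change -0.98, SE 0.499, adjusted p = 0.254). The WT natural mating arrays of Fgf21 straddled those of WT IVF, with replicate 3 lowest of all, and without that array 7 genes of the list fell, Fgf21 among them (log2 fold change -1.69, adjusted p = 0.0101).

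Genes of the growth hormone axis moved singly. Stat5b, which carries the growth hormone signal to the nucleus, read 9.21, 9.0 and 9.39 in WT IVF and 8.42, 8.18 and 8.26 in WT natural mating (log2 fold change 0.91, SE 0.111, adjusted p = 0.00175). Igfbp2, a carrier of insulin-like growth factors, read 10.32, 10.49 and 10.42 in WT IVF and 11.48, 11.48 and 11.01 in WT natural mating (log2 fold change -0.91, SE 0.158, adjusted p = 0.00777). These were the 2 called genes of 21, while Ghr, the growth hormone receptor gene, with 0.51 (SE 0.0954, adjusted p = 0.0112), and Igf1, with 0.37 (SE 0.104, adjusted p = 0.0494), lay below the fold threshold. Without WT natural mating replicate 3 the list had 4 rises and 2 falls.

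Among the P450 and conjugation genes, few members of each family were called. Cyp3a16, a P450 of young and female mouse liver, read 8.03, 7.39 and 8.18 in WT IVF and 4.25, 4.49 and 4.57 in WT natural mating, a 10.8-fold difference and the largest rise of a held call (log2 fold change 3.43, SE 0.488, adjusted p = 0.00316). It was the 1 called gene of 17 in the Cyp1, Cyp3 and Cyp4 families, whose median was -0.24, and Cyp3a11 differed by -0.08 (SE 0.131, adjusted p = 0.749). Cyp2c70, which makes the muricholic bile acids of mice, rose by 1.02 (SE 0.172, adjusted p = 0.0068), one of 2 rises and 1 fall among 25 Cyp2 genes with a median of 0.35. Of 24 female-biased genes, 4 rose and 1 fell, with a median of 0.00, and without WT natural mating replicate 3 there were 4 rises and 5 falls, with a median of -0.13. Besides Cyp3a16, the receptor gene Ntrk2 had 6.61, 6.17 and 6.9 in WT IVF and 5.37, 5.46 and 5.24 in WT natural mating (log2 fold change 1.2, SE 0.207, adjusted p = 0.0076), and the oxidase gene Hao2 rose by 1.14 (SE 0.213, adjusted p = 0.0109). Of 21 male-biased genes 1 rose and 1 fell, which became 4 rises and 2 falls without WT natural mating replicate 3 and 1 rise and 4 falls without replicate 1 of that group. Cux2, a female-biased transcription factor gene, did not pass with all arrays (log2 fold change -0.50, SE 0.328, adjusted p = 0.386) and passed once WT natural mating replicate 3 was left out (-0.96 at an adjusted p of 0.0214).

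The mitosis genes as a list lay higher in all WT IVF livers. All 39 measured mitosis genes had a positive log2 fold change, with a median of 0.96, and in 37 of them every WT IVF array lay above every WT natural mating array, which was so for 16.9% of all genes. The list medians by array were 0.94, 1.09 and 0.93 in WT IVF and 0.03, 0.22 and -0.30 in WT natural mating. In the fit of all arrays 6 of the 39 were called and none of these calls held (with 1 array left out, 0 or 1 gene passed). The spread in that fit comes from all 4 groups, and the median SD of these genes was 0.124 in WT IVF, 0.298 in WT natural mating, 0.683 in Atf7-/- IVF and 0.487 in Atf7-/- natural mating, against 0.099 to 0.136 over all genes. With only the 6 WT arrays in the fit, 23 of the 39 were called, where 799 of all probe sets were called higher.

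Mki67, the gene of the proliferation antigen Ki-67, read 8.64, 8.85 and 8.68 in WT IVF and 7.36, 7.48 and 6.77 in WT natural mating. Its log2 fold change of 1.52 had an SE of 0.479 and an adjusted p of 0.0762 with all arrays, and an adjusted p of 0.0179 with only the WT arrays. Cdk1, the kinase that starts mitosis, read 9.33, 9.49 and 9.56 in WT IVF and 8.23, 8.26 and 7.94 in WT natural mating (log2 fold change 1.32, SE 0.4, adjusted p = 0.0664 with all arrays and 0.0112 with the WT arrays). Of 41 DNA replication genes, 8 rose and 37 had a positive log2 fold change, with a median of 0.40. Of these 8 calls only that of Rfc5, a subunit of the clamp loader, held, and it read 8.88, 8.89 and 9.15 in WT IVF and 8.12, 8.43 and 8.15 in WT natural mating (log2 fold change 0.74, SE 0.141, adjusted p = 0.0115). The ribonucleotide reductase gene Rrm2 did not pass with all arrays (log2 fold change 1.04, SE 0.394, adjusted p = 0.132) and passed with only the WT arrays (adjusted p = 0.025). Of 15 measured cyclin and growth arrest genes none was called higher and 2 were called lower, with no held call. Of these genes 7 were positive and 8 negative, with a median of -0.01. Ccnd1, which drives entry into the cycle, overlapped between the groups, with 9.94, 9.25 and 9.99 in WT IVF and 9.83, 10.8 and 10.18 in WT natural mating (log2 fold change -0.54, SE 0.331, adjusted p = 0.345). Which cells of the liver carried the mitosis RNAs was not tested.

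**Figure D3:**
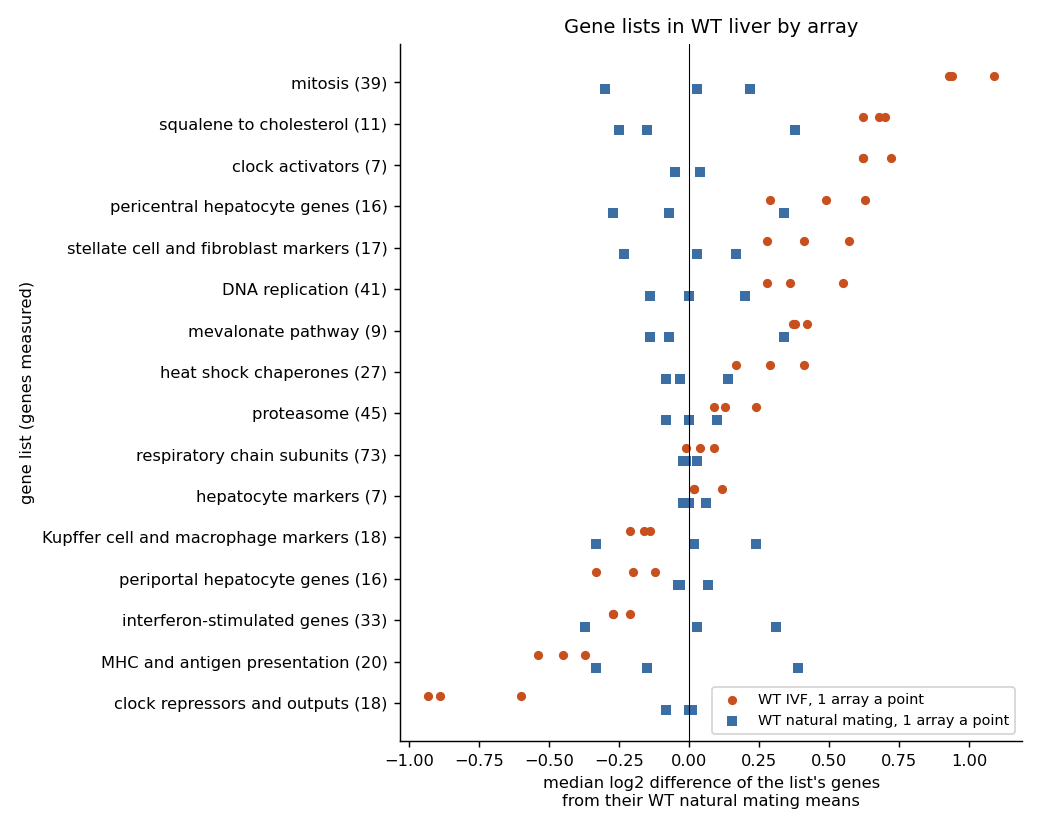
Median log2 difference of each gene list from its WT natural mating mean (horizontal axis) on each of 3 WT IVF arrays (circles, upper) and 3 WT natural mating arrays (squares, lower), for 16 lists with their number of measured genes (vertical axis). The mitosis list has the highest WT IVF medians (0.93 to 1.09) and the clock repressors and outputs the lowest (-0.93 to -0.60), and WT natural mating replicate 3 is the high square of the sterol and MHC lists.

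Only some subunits of large complexes rose, and over all genes 3.27% were called higher and 1.47% were so with a held call. Of 45 proteasome genes 7 rose and none fell, 4 of them with a held call, while the list median was 0.12. Psmb5, a catalytic subunit, read 11.64 on all 3 WT IVF arrays and 10.63, 10.93 and 10.25 in WT natural mating (log2 fold change 1.03, SE 0.178, adjusted p = 0.00764). Psmd14, the deubiquitinase of the lid, read 9.84, 9.84 and 9.86 in WT IVF and 8.78, 8.88 and 8.8 in WT natural mating (log2 fold change 1.02, SE 0.122, adjusted p = 0.00161). Of 73 respiratory chain subunit genes 6 rose and none fell, with a median of 0.08, and 4 of the calls held. Of the complex I genes, Ndufs8 rose by 0.83 (SE 0.155, adjusted p = 0.0107), Ndufs4 by 0.83 (SE 0.123, adjusted p = 0.00394) and Ndufb9 by 0.77 (SE 0.105, adjusted p = 0.00269). The complex III gene Uqcrb rose by 0.85 (SE 0.142, adjusted p = 0.00628), while 1 of its 2 other probe sets was not called (0.38, adjusted p = 0.0941).

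The ribosomal protein genes had members on both sides. Of 56 measured cytosolic ones 3 rose and 1 fell, with a median of 0.02. Rpl38 read 12.19, 12.25 and 12.36 in WT IVF and 11.46, 11.26 and 11.41 in WT natural mating (log2 fold change 0.89, SE 0.0997, adjusted p = 0.00127), but 2 of its 3 other probe sets were not called (0.16, adjusted p = 0.556, and 0.43, adjusted p = 0.62). Rpl24 went the other way with 11.42, 11.47 and 11.69 in WT IVF and 12.17, 12.18 and 12.42 in WT natural mating (log2 fold change -0.73, SE 0.102, adjusted p = 0.00283). Its 2 dimmer probe sets were not called (-0.39, adjusted p = 0.139, and -0.33, adjusted p = 0.223). Ribosomal protein genes have many near-identical pseudogenes, and how far probe sets read those was not tested. Of 75 mitochondrial ribosomal genes 3 rose, a share near the 3.27% of all genes. Mrpl23 was the one whose call held (log2 fold change 0.94, SE 0.087, adjusted p = 0.000551). Of 63 spliceosome genes 5 rose and none fell, with held calls for Snrpb2 (0.92, SE 0.143, adjusted p = 0.00471) and Plrg1 (0.73, SE 0.133, adjusted p = 0.0101). None of 27 heat shock chaperone genes was called, although 22 were positive and the list median was 0.31. Hspa8 differed by -0.09 (SE 0.142, adjusted p = 0.743).

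Large changes in both directions were also found for genes outside the lists described above. Adgrf1, an adhesion receptor gene, read 8.89, 8.91 and 8.96 in WT IVF and 6.68, 6.59 and 6.87 in WT natural mating and had the smallest adjusted p of the genes named here (log2 fold change 2.21, SE 0.116, adjusted p = 3.25e-05). Slc30a10, a manganese exporter of liver and intestine, read 9.4, 9.36 and 9.38 in WT IVF and 7.33, 6.78 and 8.28 in WT natural mating (log2 fold change 1.92, SE 0.308, adjusted p = 0.0055). Slc16a1, the monocarboxylate transporter MCT1, read 10.53, 10.22 and 10.5 in WT IVF and 9.13, 9.12 and 8.9 in WT natural mating (log2 fold change 1.36, SE 0.172, adjusted p = 0.00192). Each of these transporters lay higher on all 3 WT IVF arrays than on any WT natural mating array. Of 37 drug and metabolite transporter genes, 4 rose and 1 fell, 17 were positive and 20 negative, and the median was -0.04. Hspa13, a chaperone of the secretory pathway, read 9.97, 8.98 and 9.95 in WT IVF and 7.7, 7.55 and 8.49 in WT natural mating (log2 fold change 1.72, SE 0.332, adjusted p = 0.0125). Among the falls, Nrg4, a secreted ligand of ErbB receptors, read 6.11, 5.99 and 5.97 in WT IVF and 8.33, 8.7 and 7.56 in WT natural mating (log2 fold change -2.17, SE 0.267, adjusted p = 0.00178). Plk3, a stress-responsive kinase, read 7.37, 7.59 and 7.48 in WT IVF and 9.48, 9.41 and 9.17 in WT natural mating (log2 fold change -1.87, SE 0.125, adjusted p = 0.000206). The carboxylesterase gene Ces1f and the uridine phosphorylase gene Upp2 fell, Ces1f by 1.81 (SE 0.269, adjusted p = 0.00398), Upp2 by 1.66 (SE 0.295, adjusted p = 0.0088).

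Further rises were found for single genes. Gpm6a, a membrane glycoprotein best known from neurons, read 7.03, 7.25 and 7.42 in WT IVF and 5.81, 5.38 and 5.4 in WT natural mating (log2 fold change 1.71, SE 0.161, adjusted p = 0.000551), and Lrtm1, a leucine-rich repeat membrane protein gene, read 8.59, 8.53 and 8.59 in WT IVF and 6.74, 5.89 and 6.99 in WT natural mating (log2 fold change 2.03, SE 0.314, adjusted p = 0.00448). Nt5e, the enzyme CD73 that makes adenosine from AMP, read 9.57, 9.77 and 9.82 in WT IVF and 8.24, 8.17 and 7.73 in WT natural mating (log2 fold change 1.67, SE 0.161, adjusted p = 0.000551). These 3 genes were named from held calls whose groups did not overlap, so that their separation adds nothing. Of 35 tubulin and actin cytoskeleton genes 3 rose and none fell, with a median of 0.27, and 7 rose and 1 fell without WT natural mating replicate 3. The tubulin gene Tubb2a read 9.18, 9.6 and 9.58 in WT IVF and 7.9, 8.14 and 8.29 in WT natural mating (log2 fold change 1.34, SE 0.247, adjusted p = 0.0102), and Tuba1a rose by 0.85 (SE 0.128, adjusted p = 0.00412). Both are also genes of dividing cells, and whether they moved with mitosis was not tested. The aldo-keto reductase gene Akr1c19 fell, with 8.18, 8.53 and 8.32 in WT IVF and 9.85, 9.53 and 9.93 in WT natural mating (log2 fold change -1.43, SE 0.206, adjusted p = 0.00343). Lipid genes mostly did not pass. Of 19 lipogenesis genes 1 rose with a held call, Agpat2, which makes phosphatidic acid (11.14, 11.1 and 11.04 in WT IVF and 10.25, 10.37 and 10.51 in WT natural mating, log2 fold change 0.72, SE 0.0955, adjusted p = 0.00255), while Scd1, the stearoyl-CoA desaturase gene, overlapped (log2 fold change 0.11, SE 0.324, adjusted p = 0.873).

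Most MHC and interferon-stimulated genes had a negative log2 fold change, and the medians of both lists depended on which WT natural mating arrays were used. Of 20 MHC and antigen presentation genes 19 were negative and 1 was called, with a median of -0.46. The list medians were -0.45, -0.54 and -0.37 in WT IVF and -0.33, -0.15 and 0.39 in WT natural mating, and without WT natural mating replicate 3 none was called and the median was -0.22. Without WT natural mating replicate 1, 4 were lower and the median was -0.63. Cd74, the invariant chain of MHC class II, read 8.55, 7.53 and 8.63 in WT IVF and 8.25, 9.36 and 10.99 in WT natural mating (log2 fold change -1.29, SE 0.546, adjusted p = 0.171, and -1.94, adjusted p = 0.038, without WT natural mating replicate 1). Of 33 interferon-stimulated genes 29 were negative, with a median of -0.25 that was -0.06 without WT natural mating replicate 3. Without replicate 1 of that group 6 of them were lower and the median was -0.38. By array the medians were -0.27, -0.27 and -0.21 in WT IVF and -0.37, 0.03 and 0.31 in WT natural mating, which overlap. The call of 1 of them held, the antiviral gene Oas2, with 6.91, 6.95 and 7.0 in WT IVF and 7.67, 7.92 and 8.25 in WT natural mating (log2 fold change -1.0, SE 0.159, adjusted p = 0.00533).

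A pair of immune genes rose strongly. Cd209f, a C-type lectin of Kupffer cells, the macrophages of the liver, read 7.67, 8.32 and 8.21 in WT IVF and 5.28, 4.84 and 4.3 in WT natural mating (log2 fold change 3.26, SE 0.341, adjusted p = 0.00091). The other Kupffer cell markers were not called higher, and 14 of all 18 were negative. The median was -0.17, and it was 0.04 without WT natural mating replicate 3 and -0.39, with 5 genes called lower, without WT natural mating replicate 1. Clec4f read 10.29, 10.14 and 10.42 in WT IVF and 10.29, 10.73 and 11.12 in WT natural mating (log2 fold change -0.43, SE 0.175, adjusted p = 0.16), and was lower without WT natural mating replicate 1 (-0.64, adjusted p = 0.0299). Ifi202b, a cytosolic DNA sensor of the Ifi200 family, read 5.36, 5.24 and 5.18 in WT IVF and 2.81, 3.14 and 3.16 in WT natural mating (log2 fold change 2.23, SE 0.165, adjusted p = 0.000405). Its WT natural mating level lay below the median of the olfactory (3.94) and vomeronasal (3.37) receptor genes, which liver is not known to express, so that the size of its fold change is uncertain. Its relative Aim2 differed by 0.05 (SE 0.173, adjusted p = 0.891). The pentraxin gene Apcs, the serum amyloid P component of mice, read 11.23, 11.58 and 11.37 in WT IVF and 10.29, 9.69 and 10.11 in WT natural mating (log2 fold change 1.36, SE 0.155, adjusted p = 0.00132), and it was the 1 called gene of 27 acute phase genes. Ifi202b and Aim2 belong to a family of similar genes, and cross-reading between them was not tested.

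Markers of stellate cells and fibroblasts lay higher, with 15 of 17 positive, a median of 0.41 and 2 rises, neither of which held. Their medians by array were 0.28, 0.57 and 0.41 in WT IVF and 0.03, 0.17 and -0.23 in WT natural mating. Of 38 collagen, laminin and integrin genes 7 rose and 1 fell, 27 were positive and the median was 0.16, and 3 of the rises held. Mmp2, a collagenase, read 8.57, 8.83 and 8.83 in WT IVF and 7.67, 7.96 and 6.91 in WT natural mating (log2 fold change 1.23, SE 0.225, adjusted p = 0.01). Itga8, an integrin of stellate cells, and Lama2, a laminin chain, rose too, Itga8 by 0.85 (SE 0.157, adjusted p = 0.0106), Lama2 by 0.76 (SE 0.111, adjusted p = 0.00352). With only the WT arrays in the fit the adjusted p was 0.0532 for Mmp2 and 0.0632 for Itga8. Col1a1, the main fibrillar collagen, did not differ beyond its spread (log2 fold change 0.09, SE 0.193, adjusted p = 0.81). Cell type markers moved with these results as follows. The median was 0.05 for 7 hepatocyte, 0.14 for 16 sinusoidal endothelial, 0.04 for 10 cholangiocyte, -0.03 for 16 T and NK cell, 0.10 for 10 B cell and -0.01 for 16 neutrophil and myeloid markers. Of these lists 1 endothelial, 1 B cell and 1 hepatocyte marker was called, and their part in the results was not tested.

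Imprinted, fetal and chromatin genes gave few calls. Mest, a paternally expressed imprinted gene, read 7.62, 8.42 and 7.62 in WT IVF and 6.83, 7.06 and 6.88 in WT natural mating (log2 fold change 0.96, SE 0.24, adjusted p = 0.033). Of the 6 fits with 1 array left out, only the one without WT IVF replicate 1 kept its call (adjusted p up to 0.0917). Of 35 imprinted genes 3 rose and 1 fell, none with a held call, and the median was 0.07. The fetal genes Afp and Dlk1 were close in both groups, Afp with a difference of 0.10 (SE 0.21, adjusted p = 0.805), Dlk1 with 0.02 (SE 0.116, adjusted p = 0.95). Of 14 DNA methylation enzyme genes none was called, and Dnmt1 had 0.21 (SE 0.161, adjusted p = 0.463). Of 18 genes of H3K9 methylation and heterochromatin, the heterochromatin protein gene Cbx3 was the 1 that rose, with 10.33, 10.07 and 10.24 in WT IVF and 9.5, 9.33 and 9.58 in WT natural mating (log2 fold change 0.75, SE 0.137, adjusted p = 0.0101). Its 5 dimmer probe sets were not called (log2 fold changes of 0.19 to 1.2). The brightest of these in WT had 0.47 (SE 0.123, adjusted p = 0.0403), below the fold threshold. Which of the probe sets reads the Cbx3 gene itself was not tested. Setdb1 and Ehmt2, the H3K9 methyltransferase genes named as partners of ATF7, were not called, Setdb1 with 0.00 (SE 0.108, adjusted p = 0.996), Ehmt2 with -0.28 (SE 0.0996, adjusted p = 0.106). Atf7 itself, intact in both groups, read 8.7, 8.88 and 8.71 in WT IVF and 9.27, 8.87 and 8.92 in WT natural mating on its brighter probe set (log2 fold change -0.26, SE 0.113, adjusted p = 0.19). Its second probe set was called lower, with means of 8.04 in WT IVF and 8.78 in WT natural mating (log2 fold change -0.74, SE 0.191, adjusted p = 0.0384). The brighter probe set had means of 8.38 in Atf7-/- IVF and 8.68 in Atf7-/- natural mating livers, not far below those of WT. The paper reported Atf7 mRNA and ATF7 protein as unchanged by IVF. Of 18 genes of the ATF2 family and its partners, the stress gene Atf3 fell, with 6.25, 6.46 and 6.19 in WT IVF and 7.08, 7.3 and 7.08 in WT natural mating (log2 fold change -0.86, SE 0.12, adjusted p = 0.00293).

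Of 369 measured small RNA genes 28 fell and 6 rose (7.59% lower against 0.953% of all genes). Small nucleolar RNAs (snoRNAs) guide chemical changes of ribosomal and spliceosomal RNA and mostly lie in introns of other genes. Of 54 measured snoRNA and Cajal body RNA genes, 21 fell and none rose, which is 38.9% against 0.953% of all genes, and 52 were negative, with a median of -0.53. The group was picked out after its values were seen. Of the falls 13 held, and 14 to 20 genes fell with 1 WT array left out, while 10 fell with only the WT arrays in the fit. The median difference of these genes from the WT natural mating mean was -0.60, -0.57 and -0.53 in WT IVF and -0.11, 0.11 and 0.06 in WT natural mating.

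Snora74a read 8.02, 7.85 and 7.8 in WT IVF and 9.49, 9.78 and 10.47 in WT natural mating (log2 fold change -2.02, SE 0.274, adjusted p = 0.00261). Snora44 read 8.81, 9.0 and 8.62 in WT IVF and 10.43, 10.3 and 10.66 in WT natural mating (log2 fold change -1.65, SE 0.255, adjusted p = 0.00448). Snord82 read 10.58, 10.63 and 10.52 in WT IVF and 11.43, 11.68 and 11.49 in WT natural mating (log2 fold change -0.96, SE 0.11, adjusted p = 0.00133). All 3 guides were separated by more than the spread of either group. Vaultrc5, the RNA of the vault particle, fell by 1.96 (SE 0.198, adjusted p = 0.000725). Longer noncoding RNAs fell too, with 7.86, 7.85 and 7.94 in WT IVF and 9.85, 9.4 and 9.19 in WT natural mating for Lncpint (log2 fold change -1.59, SE 0.154, adjusted p = 0.000567), and 11.27, 11.07 and 11.37 in WT IVF and 12.01, 12.15 and 12.03 in WT natural mating for the nuclear RNA Malat1 (log2 fold change -0.83, SE 0.147, adjusted p = 0.0088). The sources used here give neither the integrity of the RNA nor the recovery of short RNAs, and their part in these falls was not tested.

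Of 300 measured miRNA genes, 6 rose and 4 fell, with a median of -0.05. Their probe sets read whatever RNA carries the hairpin sequence, so that a value need not follow the mature miRNA. The largest of these rises was that of Mir122, and its call held. It read 8.89, 8.69 and 8.53 in WT IVF and 7.73, 7.71 and 7.54 in WT natural mating (log2 fold change 1.04, SE 0.184, adjusted p = 0.00859). Of the 6 rises 3 came from 1 cluster on chromosome 14, the miR-17 to miR-92a cluster, whose miRNAs promote cell growth. The mature arms of the cluster members measured, of Mir106b from a related cluster and of let-7d are shown as RefSeq gives them (GRCm38.p6), with the seed, bases 2 to 8, in capitals. The seed is the stretch that pairs with target mRNAs, and it is the same in miR-17, miR-20a and miR-106b and the same in miR-19a and miR-19b.
miR-17-5p: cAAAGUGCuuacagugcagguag
miR-18a-5p: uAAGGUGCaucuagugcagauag
miR-19a-3p: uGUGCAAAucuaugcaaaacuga
miR-20a-5p: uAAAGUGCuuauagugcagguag
miR-19b-3p: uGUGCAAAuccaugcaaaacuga
miR-106b-5p: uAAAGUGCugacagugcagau
let-7d-5p: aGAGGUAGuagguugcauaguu
Mir19b-1 read 4.45, 4.24 and 4.47 in WT IVF and 3.38, 3.22 and 3.58 in WT natural mating (log2 fold change 0.99, SE 0.16, adjusted p = 0.00554). Mir18 read 6.45, 6.33 and 6.39 in WT IVF and 5.75, 5.78 and 5.31 in WT natural mating (log2 fold change 0.78, SE 0.146, adjusted p = 0.0112). Mir20a read 3.98, 3.83 and 4.0 in WT IVF and 3.31, 3.15 and 3.33 in WT natural mating (log2 fold change 0.67, SE 0.115, adjusted p = 0.00732). All 3 calls held and the groups did not overlap. The values of Mir20a and the WT natural mating values of Mir19b-1 were near or below the olfactory receptor median of 3.94, so that their fold changes are uncertain. Other RNAs of the cluster were not called, as Mir17 differed by -0.03 (SE 0.134, adjusted p = 0.906), the host transcript Mir17hg by 0.17 (SE 0.119, adjusted p = 0.411) and Mir19a by 0.68 with a wide spread (SE 0.256, adjusted p = 0.127). Mir106b, which shares the seed of miR-20a, went the other way with 4.99, 4.52 and 5.15 in WT IVF and 5.61, 5.46 and 5.67 in WT natural mating (log2 fold change -0.69, SE 0.166, adjusted p = 0.0294), and its call did not hold. Mirlet7d read 7.22, 7.48 and 7.31 in WT IVF and 6.47, 6.4 and 6.44 in WT natural mating (log2 fold change 0.90, SE 0.162, adjusted p = 0.00916). Its neighbours Mirlet7a-1 and Mirlet7f-1 differed by 0.08 (adjusted p = 0.727) and 0.12 (adjusted p = 0.705). These genes were chosen after their values were seen.

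**Figure D4:**
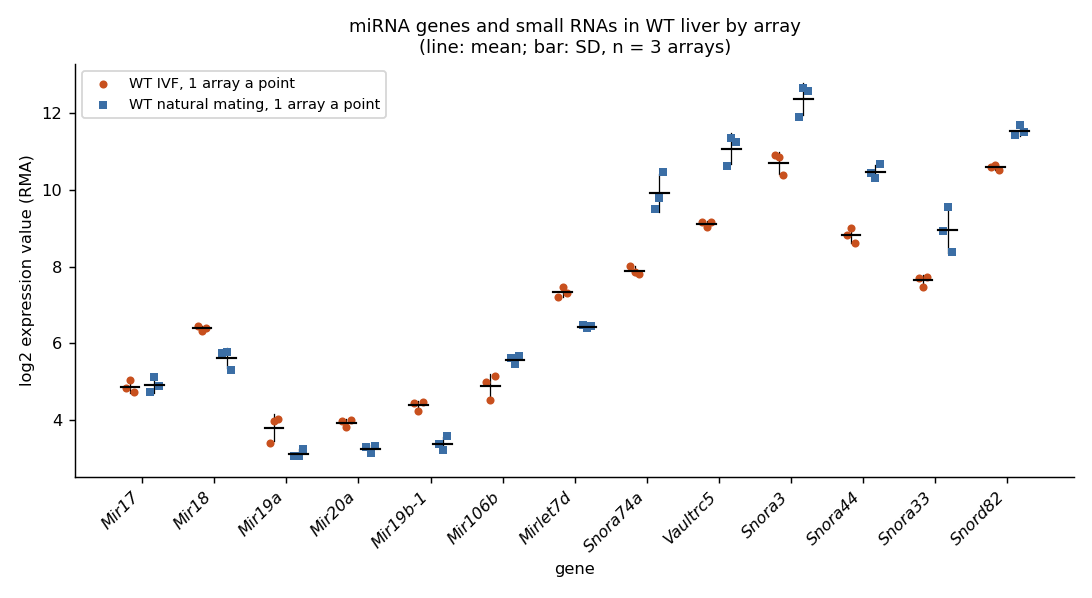
Log2 expression values (vertical axis) of miRNA genes, 5 snoRNAs and the vault RNA (horizontal axis) on each of 3 WT IVF arrays (circles, left) and 3 WT natural mating arrays (squares, right), with the mean as a line and the SD as a bar. Mir18, Mir20a, Mir19b-1 and Mirlet7d lie higher in WT IVF, Mir17 overlaps, and the 5 snoRNAs and Vaultrc5 lie lower without overlap.

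The WT difference was set beside the difference between Atf7-/- IVF and Atf7-/- natural mating livers by the interaction term of the same limma fit, the WT log2 fold change minus the Atf7-/- one. It was called for 1137 of 19937 genes (5.7%), of which 843 were more positive in WT (4.23% of those tested). Among all genes 2.31% were called higher and 4% lower by IVF in Atf7-/-. Of the 652 genes that rose in WT, 218 had a called interaction and 80 also rose in Atf7-/-, and their median log2 fold change was 0.76 in WT and 0.16 in Atf7-/-. Of the 190 that fell in WT, 63 had a called interaction and 62 also fell in Atf7-/-, with medians of -0.84 in WT and -0.36 in Atf7-/-. Genes picked for a large WT difference tend to show a smaller one in any other mice, so that these counts describe the genes and test nothing.

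Some clock genes changed in both genotypes. Arntl rose by 2.23 in WT and 1.66 in Atf7-/- (interaction 0.57, adjusted p = 0.211), and Dbp fell by 2.28 in WT and 1.96 in Atf7-/- (interaction -0.32, adjusted p = 0.757). Per3 fell by 2.32 in WT and had -0.49 in Atf7-/- (interaction -1.83, SE 0.316, adjusted p = 0.00714), Clock had 0.88 in WT and -0.05 in Atf7-/- (interaction 0.93, SE 0.151, adjusted p = 0.00566), and Per1 went the other way with -1.18 in WT and -1.99 in Atf7-/- (interaction 0.81, SE 0.196, adjusted p = 0.0319). The differences between genotypes thus ran in opposite directions within the period family. Adgrf1 rose by 2.21 in WT and had 0.59 in Atf7-/- (interaction 1.62, SE 0.164, adjusted p = 0.000493), and Ifi202b had 2.23 in WT and -0.08 in Atf7-/- (interaction 2.31, SE 0.233, adjusted p = 0.000493). Cyp3a16 rose in both, by 3.43 in WT and 1.73 in Atf7-/- (interaction 1.7, adjusted p = 0.174).

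Some genes moved in opposite directions in the genotypes. Malat1 fell by 0.83 in WT and rose by 1.1 in Atf7-/- (interaction -1.93, SE 0.208, adjusted p = 0.000774), while Akr1c19 fell by 1.43 in WT and rose by 0.73 in Atf7-/- (interaction -2.15, adjusted p = 0.00242). Hsd3b7 rose by 1.12 in WT and fell by 0.69 in Atf7-/- (interaction 1.8, SE 0.227, adjusted p = 0.00161). Of all 54 snoRNA and Cajal body RNA genes, 34 had a called interaction, against 5.7% of all genes. In Atf7-/-, 24 of them were called higher, against 2.31% of all genes, and none lower. Their median was -0.53 in WT and 0.59 in Atf7-/-. Of the 21 that fell in WT, 19 had a called interaction and 12 rose in Atf7-/-. These 21 were picked for a WT fall that is part of the interaction. Snora44 fell by 1.65 in WT and had an interaction of -3.88 (adjusted p = 0.000374). The squalene to cholesterol genes had a median of 0.67 in WT and -1.27 in Atf7-/-. An interaction was called for 8 of 11, against 5.7% of all genes, but none of the WT calls of this list held. Sqle had 1.34 in WT and -2.49 in Atf7-/- (interaction 3.83, SE 0.924, adjusted p = 0.0317). It read 6.65, 8.97 and 6.58 in Atf7-/- IVF and 9.37, 10.44 and 9.86 in Atf7-/- natural mating, so that Atf7-/- IVF replicate 2 stood apart. The mitosis genes had a median of 0.96 in WT and -0.21 in Atf7-/-, but an interaction was called for only 2 of 39, where 5.7% of all genes had one. In Atf7-/- IVF, Mki67 read 7.0, 9.05 and 7.29 and Cdk1 read 7.96, 9.69 and 8.01, so that replicate 2 stood apart here too. Movement in opposite directions is therefore not shown for this list.

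**Figure D5:**
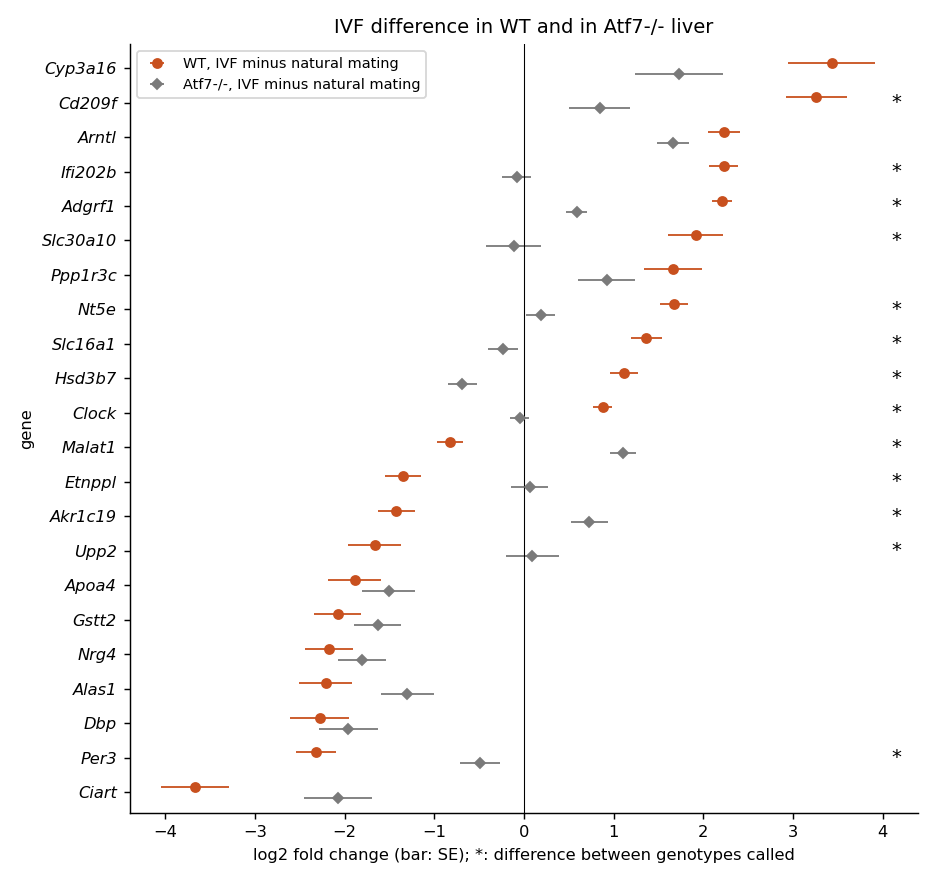
Log2 fold change of IVF over natural mating with its SE (horizontal axis) in WT (circles, upper) and Atf7-/- livers (diamonds, lower) for 22 genes with a held call in WT (vertical axis), an asterisk marking a called interaction. Arntl, Dbp, Gstt2 and Apoa4 lie on the same side in both genotypes, whereas Ifi202b lies at 2.23 and -0.08 and Malat1 at -0.83 and 1.1.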

How the data were processed

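Livers of 12 male mice, 3 in each of 4 groups, were measured on 1 Affymetrix Mouse Gene 1.0 ST array each. The authors normalized the arrays with RMA, run with affy per the submitters' processing notes, and deposited log2 expression values for 34760 probe sets. The sources used here do not give versions of these tools or the annotation build. Probe sets were named through the platform annotation of GEO, which gives 1 symbol for 21640, several for 1321 and none for 11799, and 21553 of the named ones were found in the RefSeq table of GRCm38.p6. For each of 19937 symbols the probe set with the highest mean over 12 arrays was described. Whether that probe set lies at the locus of its gene was not tested.

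Group means were fitted with limma 3.58.1 (R 4.3.3) over all 12 arrays, with 8 residual degrees of freedom and Benjamini-Hochberg adjustment over all probe sets. Tables and plots used pandas 2.3.3, numpy 2.4.6 and matplotlib 3.10.9. The fit was tested on simulated data with known changes. With 3 arrays a group the number of mice limits the precision, and array values carry no read depth. Same-numbered arrays of both groups are separate animals.

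The 70 gene lists and the members were chosen with earlier results of these data known. Named were the 15 largest rises and 15 largest falls with a held call and no overlap (predicted genes and small RNAs left out), up to 4 members with a held call per direction of each list, the key genes of each list, and the 5 largest interactions in each direction. Small RNAs and miRNA genes were named after their values were seen. Alternatives were the WT arrays alone, median centring, quantile normalization, array weights, robust variances with an intensity trend, the replicate number as a block, filters on dim or unnamed probe sets, other thresholds and each WT array left out.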

Additional observations from a re-analysis of the deposited data

Results flagged for a closer look

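The IVF difference of the following named genes differed between WT and Atf7-/- livers, tested as the interaction of the limma fit (WT minus Atf7-/-, adjusted over all probe sets). The small RNAs named next fell in WT and had a positive log2 fold change in Atf7-/-. Snora44 had -1.65 in WT and 2.22 in Atf7-/- (interaction -3.88, SE 0.361, adjusted p = 0.000374). Vaultrc5 had -1.96 in WT and 1.31 in Atf7-/- (interaction -3.27, SE 0.28, adjusted p = 0.000245). The interaction was -3.23 for Snora74a (adjusted p = 0.00133) and -2.06 for Snord82 (adjusted p = 0.000153).

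Among metabolic genes the WT difference was the more positive for Sqle (3.83, adjusted p = 0.0317), Hsd3b7 (1.80, adjusted p = 0.00161), Srebf2 (1.01, adjusted p = 0.00151), Avpr1a (1.36, adjusted p = 0.00685) and Agpat2 (0.93, adjusted p = 0.00347). Sqle had 1.34 in WT and -2.49 in Atf7-/- (interaction 3.83, SE 0.924, adjusted p = 0.0317). Its values were uneven within WT natural mating (7.38, 7.68 and 9.44) and within Atf7-/- IVF (6.65, 8.97 and 6.58). The opposite held for Cyp7a1 (-3.43, adjusted p = 0.0292), Upp2 (-1.76, adjusted p = 0.0301), Etnppl (-1.41, adjusted p = 0.0154) and Akr1c19 (-2.15, adjusted p = 0.00242), and Cyp7a1 had -2.25 in WT and 1.18 in Atf7-/- (interaction -3.43, SE 0.808, adjusted p = 0.0292). Surface and transport genes with a more positive WT difference were Slc30a10 (2.03, adjusted p = 0.019), Slc16a1 (1.60, adjusted p = 0.00421), Nt5e (1.49, adjusted p = 0.00424) and Adgrf1 (1.62, adjusted p = 0.000493). The same was found for the immune genes Ifi202b (2.31, adjusted p = 0.000493) and Cd209f (2.41, adjusted p = 0.0142), and Cd209f had 3.26 in WT and 0.85 in Atf7-/- (interaction 2.41, SE 0.482, adjusted p = 0.0142).

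Subunit and cell division genes with a more positive WT difference were Ndufs8 (1.42, adjusted p = 0.00432), Ndufb9 (0.89, adjusted p = 0.00619), Ndufs4 (0.66, adjusted p = 0.0437), Psmb5 (1.06, adjusted p = 0.0303), Psmd14 (0.80, adjusted p = 0.0199), Rfc5 (0.85, adjusted p = 0.0282) and Tuba1a (0.78, adjusted p = 0.027). Other genes on this side were Mest (1.42, adjusted p = 0.0307), Stat5b (0.77, adjusted p = 0.0158), Mir20a (0.68, adjusted p = 0.0303), Clock (0.93, adjusted p = 0.00566) and Per1 (0.81, adjusted p = 0.0319), of which Per1 fell in both genotypes and fell further in Atf7-/-. Mir122 also lay on this side (1.30, adjusted p = 0.0143). A more negative WT difference was found for the period genes Per3 (-1.83, adjusted p = 0.00714) and Per2 (-0.91, adjusted p = 0.0239). It was also found for Malat1 (-1.93, adjusted p = 0.000774), Lncpint (-1.15, adjusted p = 0.0113), Rpl24 (-1.47, adjusted p = 0.000423) and Oas2 (-0.89, adjusted p = 0.0376), and Rpl24 had -0.73 in WT and 0.74 in Atf7-/- (interaction -1.47, SE 0.144, adjusted p = 0.000423). This is the brightest probe set of Rpl24, and its dimmer ones were not called in WT (log2 fold changes -0.39 and -0.33). Which of them reads the Rpl24 gene itself was not tested. These genes were named for their WT difference or for their interaction, so their number supports nothing about other genes.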

How the results depend on the processing

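Over all probe sets, 989 were called higher, 582 lower and 2148 for the interaction. With 1 WT array left out these counts were 619 to 1013, 364 to 782 and 1547 to 2482, the lowest without WT IVF replicate 3, WT IVF replicate 2 and WT IVF replicate 1, and the highest in each case without WT natural mating replicate 3. The count called lower was also 368 without WT natural mating replicate 2 and 379 without WT IVF replicate 3. At an adjusted p of at most 0.01 the counts were 418, 177 and 750, and at a log2 fold change of at least 1 they were 237, 199 and 986. Without a fold threshold 1783 were higher and 1214 lower. The count called lower was 347 with only the 6 WT arrays, 271 with only probe sets of 1 symbol and 226 with 1 probe set per symbol, where the interaction count was 1410. The last 2 of these settings test fewer probe sets. For the other changes the cause was not tested. The interaction could not be fitted with only the WT arrays. No named gene was called in opposite directions under the settings run, but some without a call changed sign, such as Fasn, Afp, Dlk1, Aim2, Col1a1, Hspa8, Setdb1 and Alb.

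The replicate number did not pair the samples. Deviations of same-numbered WT arrays correlated at -0.0411, 0.016 and -0.0293, and 1 of 3 WT IVF arrays was closest to its own number. With the replicate block the counts were 929 higher, 565 lower and 2020 for the interaction, and the calls of Cyp7a1 (adjusted p = 0.0605) and Mest (adjusted p = 0.0525) were lost. Median centring shifted the median log2 fold change of all probe sets by 0.07 and ended the call of Nr1d1 (adjusted p = 0.0587).

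The small number of mice, the unknown hour of dissection and a WT natural mating array that stands apart limit these results.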

Other observations

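The called rises were spread unevenly over the chromosomes. Of 732 genes on chromosome 13, 43 were higher in WT IVF (5.87%) and 2 lower, and of 739 genes on the X chromosome 42 were higher (5.68%) and 3 lower. Of 1734 genes on chromosome 7, 28 were higher (1.61%) and 21 lower. No test was run on these shares. Probe sets with no gene symbol were the one class counted with more falls than rises apart from the small RNAs and olfactory receptors, with 222 higher and 317 lower of 11799. The 1 called olfactory receptor of 1027 was lower.

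Among lists not described above, all 6 megakaryocyte and platelet markers were positive, with a median of 0.21 and 2 rises that did not hold. Of 50 translation factor and tRNA synthetase genes 3 rose and none fell, with a median of 0.15, and Eif3m was the one whose call held (log2 fold change 0.91, SE 0.135, adjusted p = 0.00398). Of 30 RNA polymerase genes 3 rose, and the held one was Znrd1, a subunit of RNA polymerase I (log2 fold change 0.84, SE 0.114, adjusted p = 0.00261). None of 26 mitochondrial import genes was called. Over all genes 3.27% were called higher.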
